A study of Mus musculus with 10 samples.

Results

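The melanocortin and CART satiety genes comprised 7 genes: Pomc, Cartpt, Agrp, Mc3r, Mc4r, Mrap2 and Atrn. They were chosen by name, each represented by its brightest probe set among those that the platform annotation pairs with that gene alone. Of the 7, 6 had such a probe set, out of 18820 gene symbols with one on the array. Agrp, the gene of agouti-related peptide, matched 0 probe sets of its own and 0 shared with other genes, so it was not analysed here.

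RNA from the hypothalamus of male CDF1 mice, a cross of BALB/c and DBA/2, was measured on whole-transcript microarrays at 10 to 11 weeks of age, 20 days after injection. Tumour-bearing mice had received 1000000 cells of C26, a murine colon adenocarcinoma line that causes wasting, under the skin of the flank in 0.2 ml of Hanks' balanced salt solution. Controls had received the same volume of the solution without cells. There were 3 control and 5 tumour-bearing mice on arrays of their own, 1 array for a pool of 4 controls and 1 for a pool of 5 tumour-bearing mice. As the labels leave unsaid if single and pooled mice overlap, the pools are given beside the single mice and were not part of the test. All levels are log2 RMA values, on which a difference of 1 is a doubling. Levels of different probe sets cannot be set against each other, so each gene is compared only with itself.

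In the hypothalamus, neurons of the arcuate nucleus that express Pomc cut its protein into alpha-MSH and other peptides, and most of them also make the CART peptides from Cartpt. Alpha-MSH acts on the melanocortin receptors Mc3r and Mc4r to lower food intake and raise energy expenditure, and agouti-related peptide, made by the neighbouring neurons that express Npy, opposes it. Mrap2 is an accessory protein that changes the signalling of Mc4r, and Atrn encodes attractin, a membrane protein needed for the action of the agouti protein in the skin and for the upkeep of myelin in the brain.

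No member passed the threshold. Under limma with Benjamini-Hochberg adjustment over 22837 tested probe sets, 0 of the 6 measured members rose and 0 fell, where 0.0569% of all tested probe sets were called. At an unadjusted limma p under 0.05 there were also 0 members, against 10.5% of all tested probe sets. For 0 of the 6 were the 3 controls and the 5 tumour-bearing mice fully apart, against 7.45% of all tested probe sets (3.28% with tumour-bearing mice above and 4.17% with them below). All 6 lay above the filter level of 4.32 on all 8 single arrays. The adjusted p-values of the members ran from 0.508 to 0.963. Their differences, tumour-bearing minus control, had a median of -0.03 and a median size of 0.14, against -0.01 and 0.06 over the 12978 genes tested. Fewer cells of a type and less RNA per cell cannot be told apart in this bulk tissue.

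**Figure D1:**
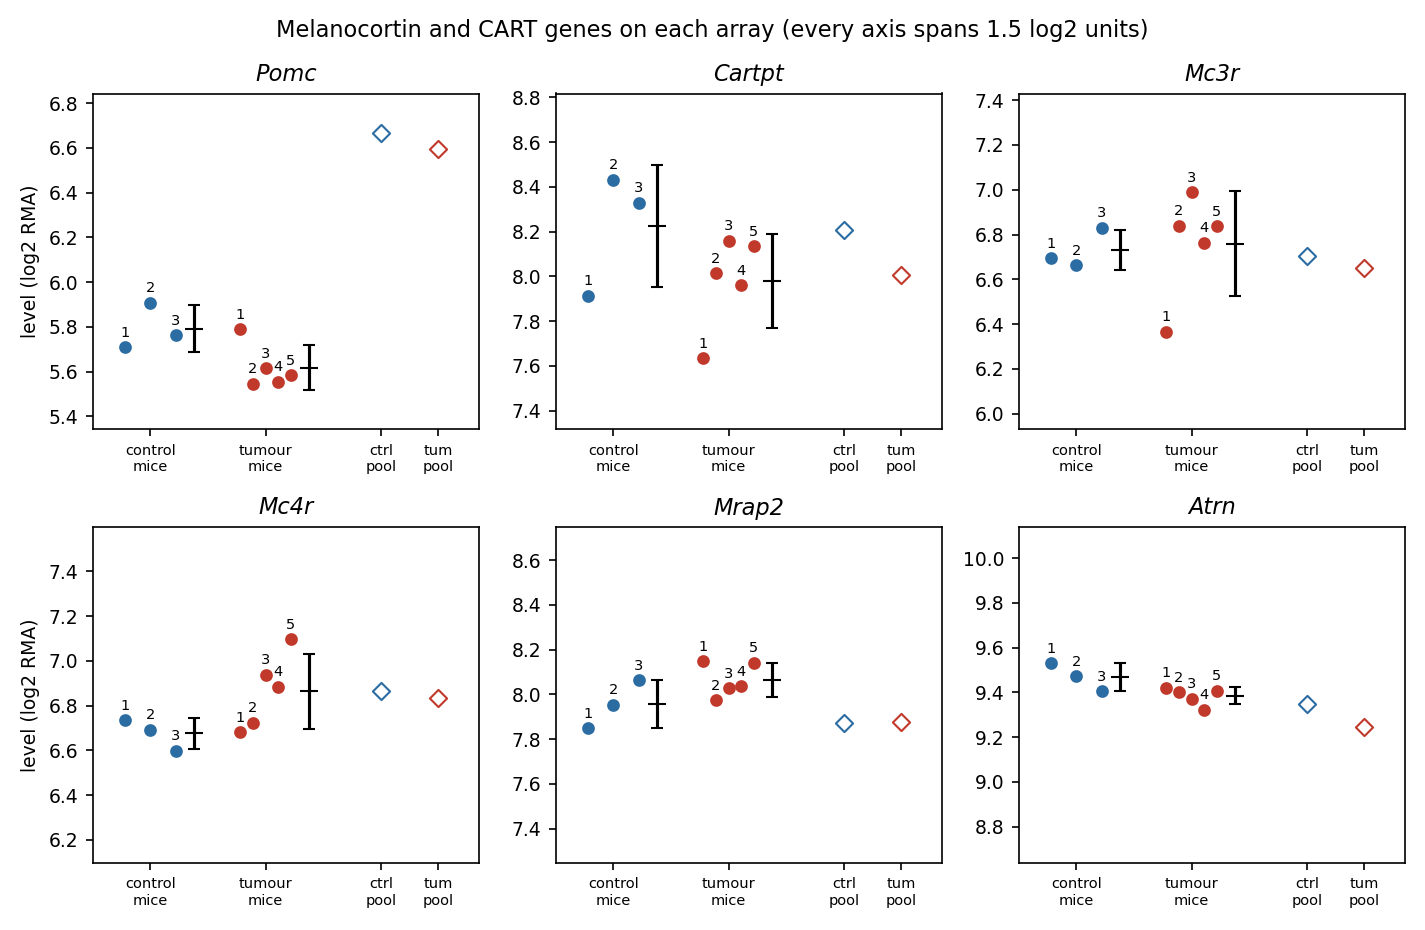
Level of each member (log2 RMA, vertical axis) on each array: filled points are single mice numbered by replicate, with the group mean and SD to their right, and diamonds are the pooled arrays. For Pomc both pools, at 6.67 and 6.59, lie above all 8 single mice, which lie between 5.55 and 5.91.

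The first peptide precursor, Pomc, read 5.71, 5.91 and 5.76 in controls 1, 2 and 3. It read 5.79, 5.55, 5.62, 5.55 and 5.59 in tumour-bearing mice 1 to 5. Tumour-bearing mice 2 to 5 thus lay below every control, while mouse 1 lay within the control range, so the groups overlapped. The means were 5.79 ± 0.10 (SD, n = 3) and 5.62 ± 0.10 (SD, n = 5), with 5 of 5 tumour-bearing mice below the control mean. The fitted difference was -0.17 ± 0.09 SE (limma adjusted p = 0.542). As a fold, the control level was 1.13 times the tumour-bearing level, and the 95% interval ran from 1.30-fold lower to 1.02-fold higher in tumour-bearing mice. Leaving out each mouse in turn gave -0.22 to -0.12. The difference stayed below 0 in all 20 alternative settings, though some of these, such as the filters, cannot change it.

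Pomc is also the gene of the pituitary hormone ACTH, so pituitary transcripts were read beside it. Of 11 listed pituitary markers 9 had a probe set, and 5 of these passed the filter. The mean level of the 9 was 4.12 to 4.34 in controls and 4.35 to 5.66 in tumour-bearing mice. Tumour-bearing mice 3 and 4 stood apart: Gh, growth hormone, read 10.45 and 10.48 there, against 4.76 to 5.51 in the other tumour-bearing mice and 4.21 to 4.45 in controls. Pomc in those 2 mice, at 5.62 and 5.55, lay within the 5.55 to 5.79 of the other tumour-bearing mice. Tbx19, a transcription factor of corticotrophs and melanotrophs, read 4.61 and 4.41 in mice 3 and 4 and 4.40 to 4.82 in controls. Pax7, a melanotroph factor also made in the midbrain, read 4.16 and 4.51 there, the lowest of the 8 single mice, and 4.74 to 5.18 in controls. Without mice 3 and 4 the Pomc difference was -0.15 (limma adjusted p = 0.707). The part of pituitary tissue in the Pomc difference was not otherwise tested.

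The pools gave a different level of Pomc. The control pool read 6.67 and the tumour-bearing pool 6.59, a difference of -0.07 with no replicate check. Both pools lay above all 8 single mice, and their mean was 0.95 higher than the mean of the single mice, rank 24 of the 22837 tested probe sets. Both pools were above all single mice for 11.8% of tested probe sets and below them for 11.1%, so a gap of some size between pooled and single arrays was common. By the brightest probe sets, Pomc was alone among the 6 members in having both pools beyond all single mice. For the other members the gap between the means ran from -0.15 to 0.06. A second Atrn probe set, 10601612, read 7.96 and 7.76 in the control and tumour-bearing pools, below the 8.05 to 8.23 of the single mice. Pituitary transcripts varied in the pools. Gh read 4.37 in controls and 9.82 in tumour-bearing mice, while Cga, the shared subunit of several pituitary hormones, read 7.83 and 7.65 and had a pool mean 0.68 higher than that of the single mice, which read 6.10 to 7.88. Over the 9 pituitary markers with a probe set, the pool mean minus the single mean ran from -0.08 for Tbx19 to 0.97 for Gh. For Pax7 it was 0.10. The part of pituitary tissue in the Pomc gap was not tested. Joint or separate processing of pooled and single arrays is not stated in the sources used here, and its part in the gap was not tested.

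**Figure D2:**
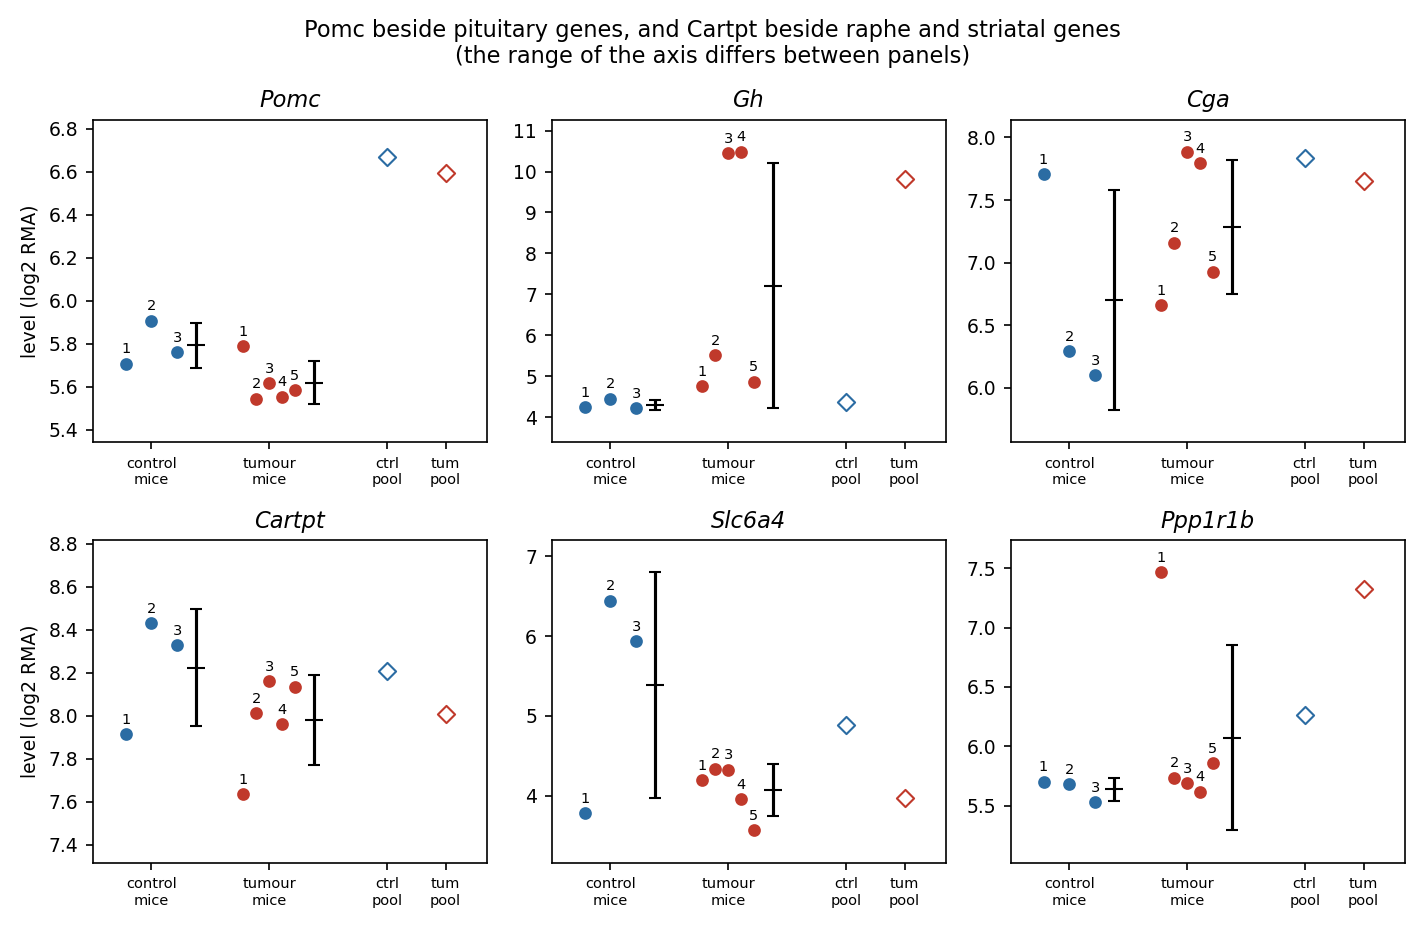
Levels (log2 RMA, vertical axis) of Pomc beside the pituitary genes Gh and Cga, and of Cartpt beside Slc6a4 of serotonin neurons and Ppp1r1b of striatal neurons, with filled points for single mice, mean and SD beside them and diamonds for pools. Tumour-bearing mice 3 and 4 have Gh at 10.45 and 10.48 with Pomc at 5.62 and 5.55, and tumour-bearing mouse 1 has the lowest Cartpt (7.64) and the highest Ppp1r1b (7.47).

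The second precursor, Cartpt, had the largest difference among the members. It read 7.91, 8.43 and 8.33 in controls 1 to 3 and 7.64, 8.01, 8.16, 7.96 and 8.13 in tumour-bearing mice 1 to 5. Controls 2 and 3 were above all tumour-bearing mice, but control 1 was below all of them except mouse 1. The means were 8.22 ± 0.27 (SD, n = 3) and 7.98 ± 0.21 (SD, n = 5), a difference of -0.24 ± 0.14 SE (limma adjusted p = 0.591). The 95% interval ran from 1.47-fold lower to 1.05-fold higher in tumour-bearing mice. The pools read 8.21 and 8.01, in the same direction, with a difference of -0.20.

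The size of the Cartpt difference rested on single mice: leaving out control 1 gave -0.40, leaving out control 2 gave -0.14 and leaving out tumour-bearing mouse 1 gave -0.16. Cartpt is also made outside the hypothalamus, so transcripts of neighbouring tissue were read beside it. Control 1 had a low level of Slc6a4, the serotonin transporter of raphe neurons, at 3.78 against 6.45 and 5.93 in controls 2 and 3 and 3.56 to 4.34 in tumour-bearing mice. Over the 9 of 10 midbrain and raphe markers with a probe set the mean level was 5.93 in control 1, 6.77 and 6.59 in controls 2 and 3, and 4.85 to 6.12 in tumour-bearing mice. Among these markers control 1 lay furthest below controls 2 and 3 in Slc6a4 and in Tph2, at 3.19 against 5.99 and 5.13. The other markers were also lower in control 1, but by less. In tumour-bearing mice 1 to 5 the mean level of the 9 markers was 5.51, 6.12, 4.85, 5.47 and 5.36, beside the Cartpt levels given above. Slc6a3, the dopamine transporter, read 8.30, 9.67, 6.19, 8.51 and 8.47 in these mice and 9.71 to 9.91 in controls. Tumour-bearing mouse 1 had Ppp1r1b, a gene of striatal medium spiny neurons, at 7.47 against 5.53 to 5.86 in the 7 other single mice. The 4 of 6 striatal markers with a probe set had a mean level of 7.31 in that mouse, 6.49 to 6.65 in the other tumour-bearing mice and 6.55 to 6.63 in controls. Of these markers, Drd1 and Rgs9 read 5.81 and 8.73 in that mouse, also the highest of the 8 single mice. Drd2 did not follow, at 7.25 there against 7.27 to 7.39 in controls. In the control and tumour-bearing pools the striatal mean was 6.81 and 7.38, with Ppp1r1b at 6.26 and 7.32. The midbrain and raphe mean was 6.06 and 5.80 there, with Slc6a4 at 4.89 and 3.97. The part of these tissues in the Cartpt difference, in single mice or pools, was not tested.

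Of the receptors, Mc4r, the main receptor through which alpha-MSH lowers feeding, read 6.73, 6.69 and 6.60 in controls and 6.68, 6.72, 6.94, 6.88 and 7.10 in tumour-bearing mice 1 to 5. Mice 3, 4 and 5 were above every control, and mice 1 and 2 were within the control range. The difference was 0.19 ± 0.10 SE, from 6.68 ± 0.07 (SD, n = 3) to 6.86 ± 0.17 (SD, n = 5), with limma adjusted p = 0.532. The 95% interval ran from 1.02-fold lower to 1.32-fold higher, and leaving out single mice gave 0.13 without tumour-bearing mouse 5 to 0.23 without tumour-bearing mouse 1. The pools did not show a difference in that direction, with controls at 6.86 and tumour-bearing mice at 6.83.

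Mc3r, the receptor that arcuate Pomc and Agrp neurons also carry themselves, read 6.69, 6.66 and 6.83 in controls and 6.37, 6.84, 6.99, 6.76 and 6.84 in tumour-bearing mice 1 to 5. The tumour-bearing mice held both the lowest value, in mouse 1, and the highest, in mouse 3, and their SD was 0.23 against 0.09 in controls. The difference was 0.03 ± 0.13 SE (limma adjusted p = 0.963), and its 95% interval, from 1.19-fold lower to 1.24-fold higher, held either direction. The sign turned when control 2 was left out (-0.0039), when tumour-bearing mouse 3 was (-0.028) and when both mice 3 and 4 were (-0.049); leaving out tumour-bearing mouse 1 gave 0.13. The pools read 6.70 and 6.65.

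Mrap2, the accessory protein gene, read 7.85, 7.95 and 8.06 in controls and 8.15, 7.97, 8.03, 8.04 and 8.14 in tumour-bearing mice 1 to 5. Mice 1 and 5 were above every control, the other 3 were between controls 2 and 3, and all 5 were above the control mean. The difference was 0.11 ± 0.06 SE (limma adjusted p = 0.583), with an interval from 1.02-fold lower to 1.19-fold higher, and 0.06 without control 1. The pools both read 7.87.

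Atrn had 2 probe sets paired with it alone, and they differed in direction. The brighter, 10476207, read 9.53, 9.47 and 9.40 in controls and 9.42, 9.40, 9.37, 9.32 and 9.41 in tumour-bearing mice 1 to 5. All 5 tumour-bearing mice were below controls 1 and 2, and mice 1 and 5 were just above control 3. Its difference was -0.08 ± 0.04 SE (limma adjusted p = 0.508), the smallest p among the members and a 95% interval from -0.17 to 0.0063. With each mouse left out it ran from -0.12 without control 3 to -0.05 without control 1. The second, 10601612, differed by 0.04 ± 0.05 SE (limma adjusted p = 0.806), with means of 8.13 ± 0.07 (SD, n = 3) and 8.17 ± 0.05 (SD, n = 5). All 6 named probe sets nearest by identifier to 10476207 belong to genes among the 10 on either side of Atrn in the RefSeq annotation of GRCm38.p6, Itpa and Hspa12b included. For 10601612 the count was 0 of 6, so whether that probe set reads Atrn is uncertain. The mean of both probe sets differed by -0.02. Oligodendrocyte markers were read in the same animals, by the mean level of the 4 of 6 with a probe set. It was 8.60 to 8.69 in controls and 7.86, 8.50, 7.79, 8.12 and 7.52 in tumour-bearing mice 1 to 5. None of these markers passed the threshold (limma adjusted p from 0.241 to 0.344). Their part in the Atrn difference was not tested.

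**Figure D3:**
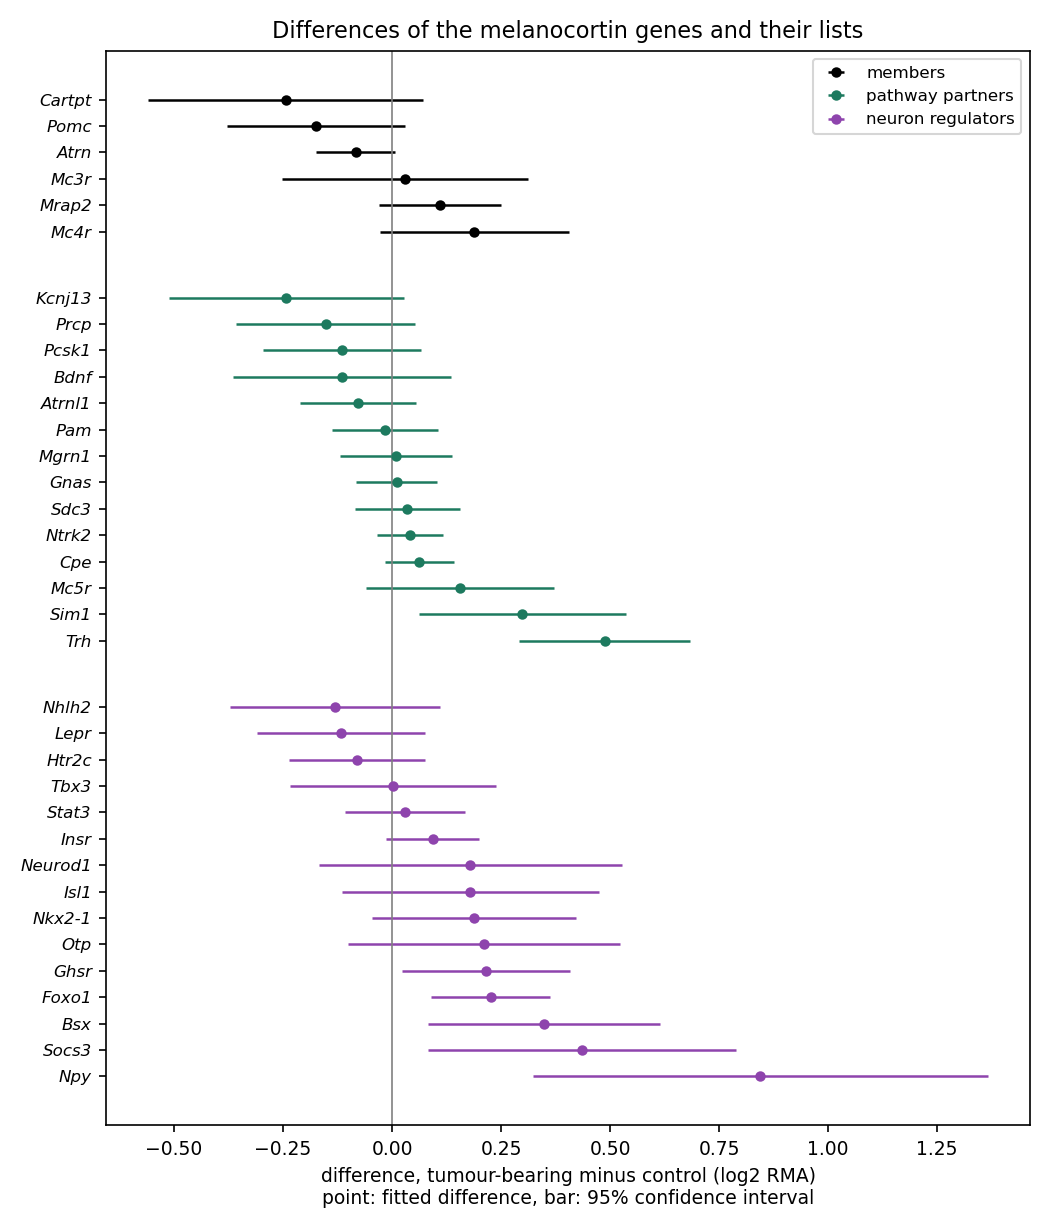
Fitted difference, tumour-bearing minus control (log2 RMA, horizontal axis), with its 95% confidence interval, for the 6 members, 14 partners and 15 regulators that were tested. The intervals of all 6 members cross 0, from Cartpt at -0.24 to Mc4r at 0.19, and Npy at 0.84 and Trh at 0.49 have the largest differences of the other lists.

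The partners of the pathway were read from a list of 22 genes: enzymes that cut and modify the precursors, the other melanocortin receptors and their accessory protein, attractin partners, and signals downstream of Mc4r. Of these, 19 had a probe set of their own and 14 were tested, of which 0 rose and 0 fell (limma adjusted p from 0.135 to 0.975), and 2 had an unadjusted p under 0.05, against 1335 of all 12978 tested genes. Differences were above 0 for 8 and below 0 for 6, with a median of 0.01, where 5911 of the 12978 were above 0 and the median was -0.01. Crh was not tested, as it read below the filter level on all 8 single arrays. Its means differed by 0.54, with 3.23 to 3.48 in controls and 3.53 to 4.19 in tumour-bearing mice. Among the tested partners Trh, thyrotropin-releasing hormone of paraventricular neurons that carry Mc4r, had the largest difference, 0.49 ± 0.09 SE (limma adjusted p = 0.135). Trh read 8.00, 8.19 and 8.27 in controls and 8.63, 8.40, 8.75, 8.68 and 8.73 in tumour-bearing mice 1 to 5, which were all above the controls. Trh passed in 2 alternatives: without tumour-bearing mouse 2 (0.55, limma adjusted p = 0.0282) and with the test restricted to 1-gene probe sets (limma adjusted p = 0.0245). Over every alternative the limma adjusted p of Trh ran from 0.0245 to 0.625. Sim1, a transcription factor that paraventricular neurons need to form, differed by 0.30 ± 0.11 SE (limma adjusted p = 0.384), with 4 of 5 tumour-bearing mice above the control mean.

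Of the other receptors of the family, Mc5r was tested and Mc1r and Mc2r were not. Mc5r, found mainly in exocrine glands, differed by 0.16 ± 0.10 SE (limma adjusted p = 0.613) around means of 5.27 and 5.43, with 0.10 when control 2 was left out and 0.23 when control 3 was. Mc1r, the pigment cell receptor, read at most 4.31 on the single arrays and Mc2r, the adrenal ACTH receptor, at most 3.04, both below the filter level of 4.32 on all 8. Among the processing enzymes, Pcsk1, the convertase that makes the first cuts in the Pomc precursor, differed by -0.11 ± 0.08 SE (limma adjusted p = 0.666). Its difference was 0.0029 without control 1, whose level of 9.06 was the highest, and -0.17 without control 2 or control 3. Cpe and Pam, which trim and amidate the peptides, differed by 0.06 and -0.02 (limma adjusted p = 0.579 and 0.952). Kcnj13, a potassium channel through which Mc4r can act and also a gene of the choroid plexus, differed by -0.24 ± 0.12 SE (limma adjusted p = 0.521), with -0.39 when control 2 was left out and -0.14 when control 3 was.

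The list of 15 regulators of Pomc and Agrp neurons held receptors, their signalling genes, transcription factors and Npy, itself a peptide gene of the Agrp neurons. All 15 were tested, and 0 rose and 0 fell (limma adjusted p from 0.277 to 0.999). An unadjusted limma p under 0.05 was found for 5, Npy included, against 1335 of all 12978 tested genes. Differences were above 0 for 12 and below 0 for 3, with a median of 0.18, beside 5911 of 12978 and -0.01 over all tested genes. Npy, made in the same neurons as Agrp, read 8.79, 8.63 and 8.32 in controls and 9.45, 8.87, 9.32, 9.35 and 10.13 in tumour-bearing mice 1 to 5, a difference of 0.84 ± 0.23 SE (limma adjusted p = 0.284). Bsx, a transcription factor of those neurons, differed by 0.35 ± 0.12 SE (limma adjusted p = 0.364), with mouse 1 at 5.89 within the controls at 5.88 to 5.94 and mice 2 to 5 at 6.22 to 6.40. Foxo1, which represses Pomc and raises Agrp when insulin and leptin signals are low, differed by 0.23 ± 0.06 SE (limma adjusted p = 0.277) and all 5 tumour-bearing mice were above all controls. Socs3, a feedback inhibitor of leptin signalling, differed by 0.44 ± 0.16 SE (limma adjusted p = 0.394), but 2 controls and 1 tumour-bearing mouse were below the filter level, and the mean of its probe sets differed by 0.26. Lepr, the leptin receptor, differed by -0.12 ± 0.09 SE, and by -0.06 when control 1 was left out (limma adjusted p = 0.681 with all mice). Stat3, which carries its signal, differed by 0.03 ± 0.06 SE (limma adjusted p = 0.907), with 0.01 to 0.07 over the fits with 1 mouse left out.

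Of 10 listed hypothalamic markers 9 had a probe set of their own, and all 9 were tested. No cut-off was set for their levels, so they do not check the tissue label. Their mean level was 7.50 to 7.63 in controls and 7.65 to 7.96 in tumour-bearing mice, with tumour-bearing mice above controls. This mean is not independent of the partner and regulator lists, since Trh, Sim1, Otp and Nkx2-1 are on both. Of the others, Oxt, oxytocin, differed by 0.66 ± 0.18 SE and Avp, vasopressin, by 0.50 ± 0.07 SE (limma adjusted p = 0.277 and 0.0597). Hcrt, orexin, differed by 0.02 ± 0.08 SE and Rax, a factor of tanycytes, by -0.10 ± 0.17 SE (limma adjusted p = 0.946 and 0.885). The part of the tissue taken in the differences of the members and their lists was not tested.

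Genes whose level followed a member most closely over the 8 single arrays were ranked among 12977 others by Pearson's r, as a description of these 8 libraries. For Pomc they were Fam171a2 (r = 0.953), Gchfr (r = 0.938) and Cep97 (r = 0.937). For Cartpt they were Igdcc4 (r = 0.960), Cops7a (r = 0.957) and Ly6e (r = 0.955). For Mc3r they were Vat1l (r = 0.966), Myg1 (r = 0.960) and Hif1a (r = 0.956), and for Mc4r Pip5k1a (r = 0.979), Mroh7 (r = 0.959) and Nol12 (r = 0.956). The tenth gene still had r of 0.911 to 0.941, so none of the first 3 stood far from the genes behind it. Among the members themselves there was no common pattern: between pairs of the 6, r ran from -0.62 for Pomc with Mc4r to 0.58 for Cartpt with Mc3r, both precursors had r = 0.27, and both receptors had r = 0.45. All of these r hold the group difference and the tissue differences between animals described above.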

How the data were processed

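The deposited log2 values are RMA output of the authors, per the submitters' processing notes; these state no version or probe set definition. The range of the values is that of a log2 scale. RMA gives arrays a common distribution and compresses folds. The table held 35556 probe sets, of which 21218 were paired with 1 gene by the platform annotation, 1881 with several and 12457 are unnamed here. The symbols of all 6 measured members were the same in RefSeq by Entrez number. Tests covered the 22837 probe sets that exceeded a linear level of 20 on 3 or more of the 8 single arrays, with limma 3.58.1 in R 4.3.3 (lmFit, eBayes with an intensity trend), 5 tumour-bearing against 3 control mice, at an adjusted p under 0.05. The number of arrays limits the precision. The fit was tested on simulated data, with independent values and shifts larger than the difference of any member. That test does not bear on differences of the members' size.

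The members and lists were chosen with earlier results of these data known. Named from the partner and the regulator list were members past the threshold or otherwise the 2 with the largest difference; other members of these lists and the tissue markers given with values were chosen after those were seen. Pooled arrays and the replicate number entered only as alternatives. Figures were drawn with matplotlib 3.10.9.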

Additional observations from a re-analysis of the deposited data

Results flagged for a closer look

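Pomc in tumour-bearing mouse 1, at 5.79, lay apart from the other 4 tumour-bearing mice, at 5.55 to 5.62, by the gap to its nearest neighbour relative to the range of the group. Without that mouse the difference was -0.22 (limma adjusted p = 0.461). Ppp1r1b in the same mouse, at 7.47, lay apart from the other 4, at 5.62 to 5.86, by the same measure. These were 2 of 61 genes examined in this way, and chance alone sets about 1 in 20 groups apart.

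The pooled arrays, which entered no test, read Pomc at 6.67 in controls and 6.59 in tumour-bearing mice, above the 5.55 to 5.91 of the single mice.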

How the results depend on the processing

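The 6 members were refitted under 20 alternatives each: 117 of 120 differences kept their direction, all stayed short of the threshold, and 3, all of Mc3r, turned below 0 (-0.049 without tumour-bearing mice 3 and 4, and -0.028 to 0.13 with each mouse left out). The cause of turned signs was not tested. Member calls were 0 throughout. The count of called probe sets was 13. It was 5 with no filter, 23 with a filter at 50, 4 without the intensity trend and 24 with array weights. With only 1-gene probe sets it was 72, where fewer were tested and the variance was also fitted anew. It was 0 without tumour-bearing mice 3 and 4. Leaving out each mouse gave 0 to 66 (0 without control 3, 66 without tumour-bearing mouse 2). Partner calls were 1, Trh, with only 1-gene probe sets, and 0 to 1 with each mouse left out. Deviations of same-numbered mice correlated at -0.0020 to 0.0089, which shows no sign of pairing by replicate number but cannot exclude it. With the replicate block, over mice 1 to 3, the count of called probe sets was 0, with Gnas at -0.011 and Tbx3 at -0.022. Other turned signs were small: with array weights Pam 0.0070, Mgrn1 -0.044 and Gnas -0.013; with pools as samples Cpe -0.0096, Sdc3 -0.0044, Gnas -0.0079, Stat3 -0.029 and Tbx3 -0.021. Leaving out each mouse gave Pcsk1 -0.17 to 0.0029, Pam -0.052 to 0.017, Mgrn1 -0.071 to 0.061, Sdc3 -0.035 to 0.083, Gnas -0.029 to 0.037 and Tbx3 -0.073 to 0.14.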
